A study of Mus musculus with 4 samples.

Results

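The 10 transcripts described here are encoded by the mitochondrial genome and make core subunits of the respiratory chain. They were taken by gene symbol from the 32285 features of the gene list. mt-Nd1, mt-Nd2, mt-Nd3, mt-Nd4 and mt-Nd5 encode subunits of complex I (NADH dehydrogenase), and mt-Cytb encodes cytochrome b of complex III. mt-Co1, mt-Co2 and mt-Co3 encode the catalytic core of complex IV (cytochrome c oxidase), and mt-Atp6 encodes the proton-channel subunit of complex V (ATP synthase). They are 10 of the 13 protein genes of this genome. The other 3, mt-Nd4l, mt-Nd6 and mt-Atp8, were measured too and are given beside them.

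The mitochondrial genome is a small circular DNA carried in many copies per cell. Each strand is transcribed as a long precursor, and the tRNAs that lie between most genes are cut out to release the mRNAs. Most of these mRNAs then receive a poly(A) tail. Every other subunit of the chain is encoded in the nucleus, so the assembled complexes draw on both genomes. The beating heart depends on oxidative phosphorylation, and cardiomyocytes are packed with mitochondria.

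Visium spatial transcriptomics was performed on 4 heart sections, 1 from 1 adult ICR mouse (Hsd:ICR, CD1) at each of days 1, 4, 7 and 14 after myocardial infarction (MI). The mice were females of 12 weeks, per the study's methods, and MI was induced in all of them by tying off the left anterior descending (LAD) coronary artery for good. No sham or uninjured section was analysed here, and day, mouse and section cannot be told apart. The sample labels give day 1 for the first section, while the results text of the study gives day 2.

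A Visium spot is a small tissue region that can hold several cells, so fewer cardiomyocytes in a spot and less mitochondrial RNA per cardiomyocyte cannot be told apart. Values are unique molecular identifiers (UMIs, 1 per captured mRNA molecule), and a share is the percentage of all UMIs in the spots named. After removal of spots with more than 1% hemoglobin UMIs, 7503 of 9102 spots remained, 1679 to 2086 per section, with 9292678 to 15713779 UMIs per section and medians of 5188 to 8799 UMIs per spot. Between 1572 and 1918 spot barcodes occurred in both sections of a pair, since these barcodes mark slide positions. All 9 cardiomyocyte markers were detected in every section, and some spots of the day 7 section were rich in fast skeletal muscle markers.

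To show how the annotated genes end, the last 24 bases of 5 of them are printed with their stop codon, or its first base, in capitals. Positions are those of GENCODE vM21 on GRCm38 (mm10), and all 5 genes lie on the plus strand. The mRNAs of mt-Co3 (chrM:9367-9390 for the printed bases), mt-Nd4 (chrM:11521-11544) and mt-Cytb (chrM:15265-15288) stop after a lone T, so that the poly(A) tail completes the stop codon. mt-Co1 (chrM:6849-6872) and mt-Nd5 (chrM:13542-13565) carry a complete TAA and are shown for contrast. The next gene on their strand lies 69 and 579 bases further on, so the printed bases need not be the ends of these mRNAs.
mt-Co3: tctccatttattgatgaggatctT
mt-Nd4: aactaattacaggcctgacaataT
mt-Cytb: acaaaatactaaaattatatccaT
mt-Co1: ccaacctatgtaaaagtaaaaTAA
mt-Nd5: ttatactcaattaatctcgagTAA

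mt-Atp6 (chrM:7927-8607) and mt-Co3 (chrM:8607-9390) have no tRNA between them. They share 1 base, which is capitalised in the junction at chrM:8595-8619, plus strand.
Junction: tgataatacataAtgacccaccaaa

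The other neighbours that overlap are mt-Atp8 and mt-Atp6, by 43 bases, mt-Nd4l and mt-Nd4, by 7 bases, and mt-Nd5 and mt-Nd6, by 14 bases on opposite strands. Stretches of several members also exist in the nuclear genome as insertions. In GRCm38, mt-Co2, mt-Co3 and mt-Atp6 matched chromosome 1 over their whole length without a mismatch, the copy of mt-Co2 lying at chr1:24614882-24615565. mt-Nd3 matched the same region without a mismatch over 99.1% of its length and mt-Nd4 over 63.6%. mt-Co1 matched chromosome 2 at 97.6% identity over its whole length, mt-Nd2 matched at 96.7% over 49.2%, and the best matches of mt-Cytb and mt-Nd5, on chromosome 4, reached 92.9% and 92.3%. No nuclear match of mt-Nd1 was found. How reads that fit both places were counted is not given in the sources used here, so the levels of these members are uncertain to that extent.

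The 10 transcripts were among the most abundant mRNAs counted in each heart section. Their summed share of all UMIs was 26.7%, 29.3%, 23.9% and 34.0% on days 1, 4, 7 and 14. It was lowest on day 7 and highest on day 14, and the exact binomial 95% intervals, which cover counting error only, were at most 0.0549 points wide. With 1 mouse per day, differences between days have no replicate check and were not tested. Spots of 1 section differed far more than the sections did. Across spots the share ran from a 5th percentile of 12.2% to a 95th of 38.4% on day 1, and from 1.78% to 44.4% on day 4. On day 7 it ran from 2.27% to 37.4%, and on day 14 from 3.66% to 41.5%. No spot was without these UMIs, and the single lowest spot, on day 4, held 0.673%.

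mt-Co1 had the most UMIs of all genes in every section, with 6.63%, 7.62%, 6.10% and 9.53% on days 1, 4, 7 and 14. mt-Co3 was second, with 5.75%, 5.86%, 4.95% and 6.58%. A UMI stands for 1 captured molecule whatever the gene length, so values per kilobase give another order and are not molecule numbers. Per kilobase of gene, mt-Co3 stood first in every section, at 7.33%, 7.47%, 6.31% and 8.39% of all UMIs per kilobase on days 1, 4, 7 and 14. mt-Atp6, its neighbour upstream, came next at 5.74%, 5.97%, 5.28% and 7.62%. mt-Co1 followed at 4.29%, 4.93%, 3.95% and 6.17%. Next were mt-Co2 (2.89% to 4.43% over the 4 sections), mt-Cytb (2.28% to 3.11%) and mt-Nd3 (1.68% to 2.02%). These first 6 places were the same in all 4 sections. mt-Nd1, mt-Nd2 and mt-Nd4 lay between 1.15% and 1.73% per kilobase and traded places between sections. mt-Nd5, the longest gene of the set, was the least abundant member both ways. By UMIs it took 0.121% to 0.161%, above mt-Nd4l (0.0336% to 0.0594%) and mt-Atp8 (0.0174% to 0.0284%). Only per kilobase did it fall below these genes, at 0.0664% to 0.0880% against 0.113% to 0.2001% for mt-Nd4l and 0.0852% to 0.139% for mt-Atp8. Since mt-Nd4l and mt-Atp8 overlap the next gene on their strand, by 7 and 43 bases, their UMIs need not stand for separate mRNAs. mt-Nd6, the single protein gene on the other strand, gave 41, 59, 32 and 66 UMIs in the whole sections. Little mt-Nd6 mRNA and poor capture of it cannot be told apart here. The complex IV and V members thus stood above all complex I members per kilobase, and all 10 members lie on 1 strand.

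The members took a larger share where Myh6 and Myl2 were higher, by a wide margin on days 4 and 7 and by a narrow one on day 14. Spots were ranked within each section by their share of Myh6 and Myl2 UMIs, the cardiac myosin heavy and light chain genes, and split into 4 equal quartiles. The summed share rose from the lowest quartile through the second to the third on days 1, 4 and 7. On day 1 it was 18.6%, 28.1%, 31.8% and 27.0% from the lowest to the highest quartile. On day 4 it was 8.71%, 30.3%, 38.4% and 33.1%. On day 7 it was 10.1%, 24.0%, 28.4% and 27.2%. Day 14 spanned the least, with 29.8%, 35.7%, 35.3% and 32.8%. Its lowest quartile was a mixture. There, 370 spots that were also in the lowest quartile by UMIs per spot held 16.1%, while the deeper spots held 35.2% to 37.6%. The narrow margin thus describes summed UMIs and not most of these spots.

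The peak was below the highest quartile in all 4 sections. All 10 members peaked in the third quartile on days 1, 4 and 7, and 9 of 10 in the second on day 14. Their levels followed their sum closely, as given below, so counts of members are not counts of separate observations. From the third to the highest quartile the summed share changed by -4.78, -5.28, -1.17 and -2.52 points on days 1, 4, 7 and 14 (exact sign-flip permutation test over 4 sections, two-sided p = 0.13, the smallest this design allows). This step depended on the ranking. The Myh6+Myl2 share has the members' own UMIs in its denominator, and ranked instead on the share of UMIs outside the mitochondrial genome, the summed share changed by 0.60, -0.06, 2.26 and 1.21 points (exact p = 0.25). With 6 other cardiomyocyte genes as the ranking it changed by -2.03, -4.44, -2.78 and -3.02 points (exact p = 0.13), again with all UMIs as the denominator.

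**Figure D1:**
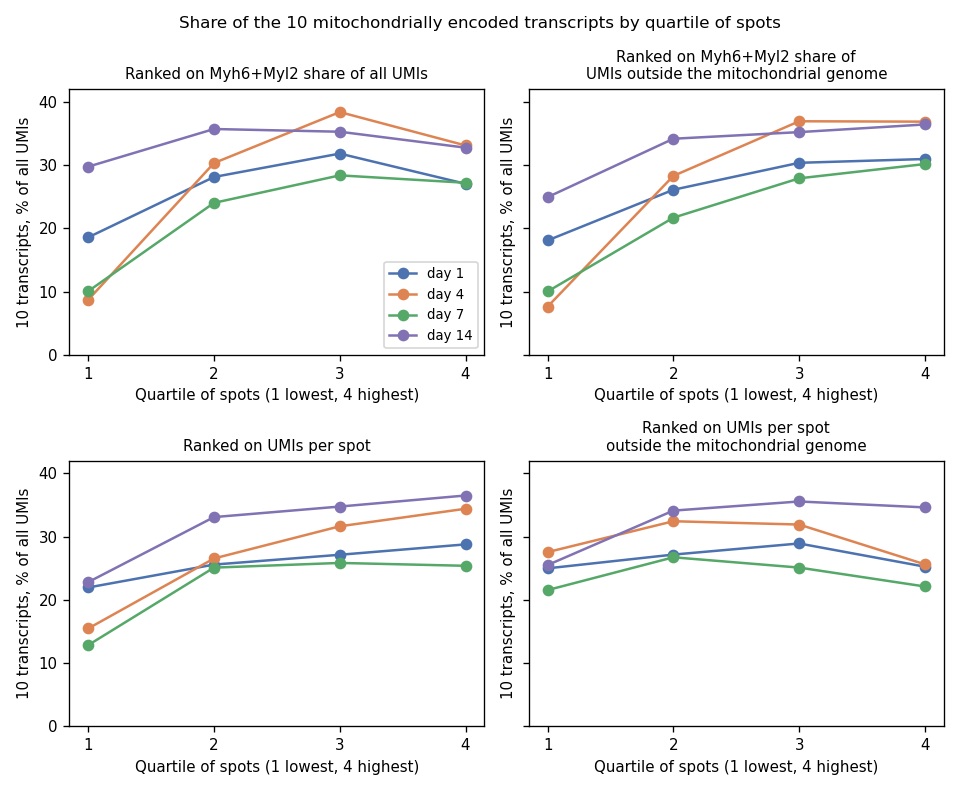
Summed share of the 10 transcripts (% of all UMIs, vertical axis) in quartiles of spots (horizontal axis) under 4 rankings, 1 line per section. The lowest Myh6+Myl2 quartile lies lowest on every day, at 8.71% on day 4, and the rise from the shallowest to the deepest quartile (lower left) ends in a middle quartile when spots are ranked on UMIs outside the mitochondrial genome (lower right).

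Between the highest and the lowest Myh6+Myl2 quartile, all 10 members were higher in the highest, at an adjusted p under 0.05 (edgeR quasi-likelihood test over 16 libraries, 4 quartiles of 4 sections, with the section as a block). Of the 4769 genes tested, 19.7% were higher and 54.1% lower, and the median log2 fold change was -0.46 over all of them and 0.88 over the members. Scaled by TMM factors in place of total UMIs, all 10 were again higher, 32.5% of all genes were higher and 35.2% lower, and the medians were -0.05 for all genes and 1.26 for the members. Thus higher calls were 26.7% of all calls by UMI share and 48.0% with TMM. The member calls depended on the sections and libraries in the fit. Without the day 7 section none passed (edgeR adjusted p from 0.0806 to 0.169, and none at an unadjusted p under 0.05) while the median log2 fold change was 0.74, and without the day 4 section 3 did, at a median of 0.60. Over all genes these fits still called 789 and 734 higher. With only the highest and lowest quartiles in the edgeR fit none passed either, while 2 had an unadjusted p under 0.05. The members' median log2 fold change was then 0.95, and 655 of all 4769 genes were called higher and 2015 lower. DESeq2 on all 16 libraries called all 10 members, with 1610 of all genes higher and 1655 lower. All 10 fold changes stayed above 0 in each of these fits.

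Among the complex IV members, mt-Co1, which carries the site where oxygen is reduced, had the largest fold change. Its share was 4.39% in the lowest and 7.00% in the highest Myh6+Myl2 quartile on day 1, 1.98% and 8.85% on day 4, 2.08% and 7.18% on day 7, and 8.10% and 9.23% on day 14. The highest quartiles of days 1 and 7 thus lay below the lowest quartile of day 14. The log2 fold change was 1.11 ± 0.33 (SE, edgeR adjusted p = 0.00784).

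mt-Co2, which takes up electrons from cytochrome c, had the smallest. Its share was 1.47% and 2.01% on day 1, 0.838% and 2.65% on day 4, and 1.08% and 2.09% on day 7. On day 14 it went the other way, with 2.88% in the lowest and 2.81% in the highest quartile, and it was the only member that was not higher in 4 of 4 sections. Its log2 fold change was 0.69 ± 0.27 (SE, edgeR adjusted p = 0.0337). This call was lost in several alternative fits while the fold change stayed above 0. It was 0.61 without the section block, 0.64 with only spots of at least 1000 UMIs, 0.55 with 6 other cardiomyocyte genes as the ranking and 0.78 without day 1. mt-Co3, the remaining core subunit, went from 4.12% to 5.81%, from 1.71% to 6.71%, from 2.32% to 5.50% and from 5.69% to 6.40% on days 1, 4, 7 and 14 (log2 fold change 0.90 ± 0.29).

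The complex I members lay within a narrow range of log2 fold changes, from 0.82 for mt-Nd4 to 0.98 for mt-Nd2. mt-Nd2, a subunit of the proton-pumping membrane arm, went from 0.887% to 1.35% on day 1, from 0.503% to 2.01% on day 4, from 0.492% to 1.46% on day 7 and from 1.36% to 1.44% on day 14. mt-Nd4, of the same arm, went from 1.27% to 1.74%, from 0.638% to 2.19%, from 0.738% to 1.80% and from 2.11% to 2.21%. mt-Nd1, at the junction with the arm that accepts electrons from NADH, went from 0.834% to 1.33%, from 0.459% to 1.63%, from 0.581% to 1.22% and from 1.43% to 1.46%. In these 3 genes the quartiles were far apart on days 4 and 7 and close on day 14. mt-Nd3 went from 0.528% to 0.707%, from 0.207% to 0.789%, from 0.272% to 0.676% and from 0.522% to 0.568%. mt-Nd5 went from 0.0969% to 0.127%, from 0.0515% to 0.175%, from 0.0530% to 0.138% and from 0.129% to 0.136%.

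mt-Cytb, the one mitochondrial subunit of complex III, went from 2.19% to 3.03%, from 0.963% to 3.51%, from 0.941% to 3.06% and from 3.03% to 3.50% (log2 fold change 0.99 ± 0.29). mt-Atp6 went from 2.79% to 3.94%, from 1.36% to 4.59%, from 1.503% to 4.08% and from 4.50% to 5.01% (0.90 ± 0.28). Of the remaining protein genes of the genome, mt-Nd4l (0.88 ± 0.26) and mt-Atp8 (0.80 ± 0.28) were also higher in the highest quartile, and mt-Nd6 had too few UMIs to be tested.

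**Figure D2:**
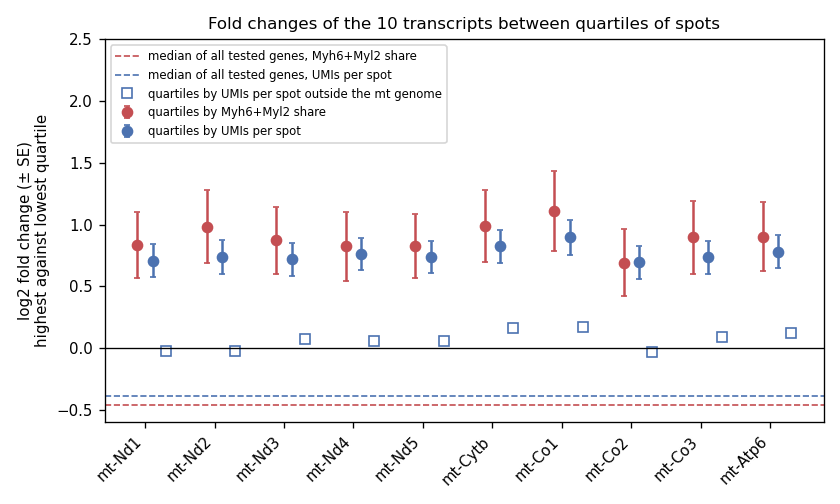
log2 fold change between the highest and the lowest quartile of spots (vertical axis, edgeR) for each of the 10 transcripts (horizontal axis), with SE for both rankings, and the value without SE for spots ranked on UMIs outside the mitochondrial genome (open squares). All 20 filled points lie above 0, from 0.69 to 1.11, and the open squares lie between -0.03 and 0.17, while the dashed medians of all tested genes lie at -0.46 and -0.39.

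Markers of other cell types moved along the same quartiles, and their part in the member values was not tested. All 6 fibroblast markers were detected, and their summed level in the lowest and highest Myh6+Myl2 quartile was 2230 and 1140 counts per 1000000 UMIs (CPM) on day 1, 36998 and 1530 on day 4, 40490 and 1686 on day 7, and 9153 and 1130 on day 14. The 6 macrophage markers, all detected, stood at 979, 6194, 4419 and 1567 CPM in the lowest quartiles of days 1, 4, 7 and 14 and at 284 to 445 CPM in the highest. The sections with the most fibroblast and macrophage signal in the lowest quartile, days 4 and 7, were those with the lowest member share there. The 9 cardiomyocyte markers, none of which was used in the ranking, went from 33062 to 59044, from 12417 to 50875, from 8838 to 57748 and from 41785 to 55602 CPM. Malat1, a nuclear-retained RNA, was lower in the highest quartile (log2 fold change -1.22 ± 0.19 SE, edgeR adjusted p = 0.000138), while its sum with Neat1, another such RNA, went from 800 to 837, from 691 to 651, from 754 to 571 and from 763 to 501 CPM. Median UMIs per spot in the lowest and highest quartiles were 6389 and 5971 on day 1, 6524.5 and 9221 on day 4, 2826 and 5515 on day 7, and 2329.5 and 8278 on day 14.

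In the day 7 section 118 spots had at least 10 UMIs of a list of 10 fast skeletal muscle genes, and 115 of them fell in the lowest Myh6+Myl2 quartile. Fast skeletal muscle has respiring mitochondria as well but uses other myosin genes. In these 115 spots the members took 22.4% of UMIs, against 3.98% in the other 347 spots of that quartile. The 10.1% given above for this quartile is therefore a mixture of both. Without all such spots the edgeR fit again called all 10 members, with a median log2 fold change of 1.02. Of the 4709 genes tested in that fit, 960 were higher and 2624 lower.

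Nuclear-encoded subunits of the same complexes were higher in the highest quartile as well. Complex I had 36 of 36 tested nuclear subunits higher (median log2 fold change 0.93), complex III 9 of 9 (1.04) and complex V 17 of 17 (1.05). Complex II, which has no mitochondrially encoded subunit, had 4 of 4 higher (1.17). In complex IV 12 of 14 were higher and 2 were lower (1.02). Over all tested genes the share that was higher was 19.7%, as given above.

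The extremes of each list were as follows, with edgeR adjusted p-values of 0.0268 or less. In complex IV, Cox7a1, the heart and skeletal muscle form of one subunit, had a log2 fold change of 1.60 ± 0.35, while Cox6a1, the form found in most other tissues, was lower by -0.82 ± 0.18. The muscle form of the same subunit, Cox6a2, was higher by 1.47 ± 0.33. In complex I the values ran from 0.59 for Ndufa7 to 1.31 for Ndufs1, in complex II from 1.14 for Sdhc to 1.23 for Sdha, and complex III was lowest for Uqcrh, at 0.81, and highest for Uqcrfs1, the Rieske iron-sulfur protein. In complex V they ran from 0.29 for Atp5g2 to 1.25 for Atp5a1, the catalytic alpha subunit. The members' range, 0.69 to 1.11, lay inside that of the nuclear subunits.

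Genes needed to copy and express mitochondrial DNA were less uniform. Of 31 genes on that list 12 had enough UMIs to be tested, and 5 were higher and 1 was lower. Lrpprc, which stabilises mitochondrial mRNAs, was higher by 0.94 ± 0.22, while its partner Slirp had -0.02 ± 0.10 and did not pass the edgeR test (adjusted p = 0.861). Tfam, which packages mitochondrial DNA and starts its transcription, was higher by 0.47 ± 0.16, and Polrmt, the mitochondrial RNA polymerase, had 0.18 ± 0.14 (edgeR adjusted p = 0.273). Polg, the mitochondrial DNA polymerase, was lower by -0.41 ± 0.16, but with TMM factors it had -0.00 ± 0.12. With TMM factors 10 of the 12 were higher and none lower, so calls near 0 on this list depended on the scaling. The calls over all tested genes moved with the scaling too. They were 19.7% higher and 54.1% lower by UMI share, and 32.5% higher and 35.2% lower with TMM. Ppargc1a, the coactivator of mitochondrial biogenesis, was higher by 1.41 ± 0.24. It had the largest value on a separate list of 5 biogenesis regulators, of which 3 were tested and 2 were higher. Gabpa, the lowest of these, had -0.21 ± 0.14 and did not pass the edgeR test (adjusted p = 0.179).

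**Figure D3:**
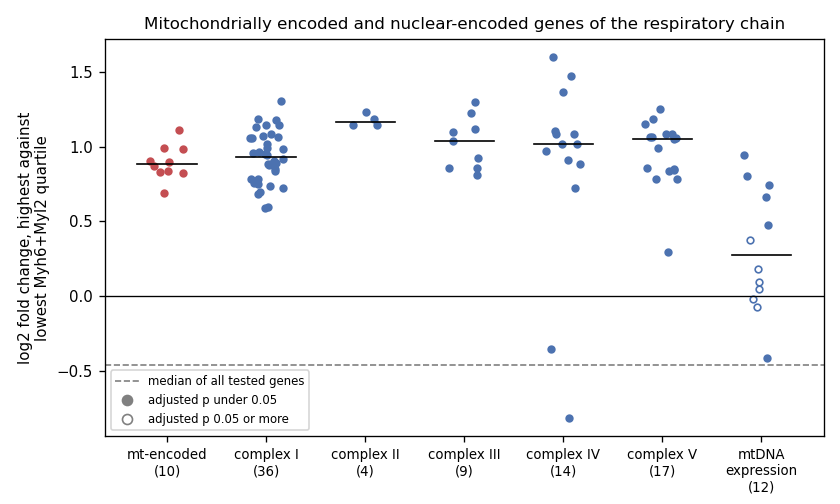
log2 fold change between the highest and the lowest Myh6+Myl2 quartile (vertical axis, edgeR) for the 10 transcripts and for tested nuclear genes of each complex and of mitochondrial DNA expression (horizontal axis, number of genes in brackets), with the median of each list as a bar. The 10 transcripts have a median of 0.88 and the lists of complexes I to V have medians of 0.93 to 1.17, while mitochondrial DNA expression genes have a median of 0.28.

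The balance between both genomes was then compared directly, as member UMIs per UMI of the 77 nuclear-encoded subunits of complexes I, III, IV and V. On day 1 it was 2.46 in the lowest and 2.13 in the highest Myh6+Myl2 quartile, on day 4 it was 2.36 and 2.86, on day 7 it was 2.17 and 2.35, and on day 14 it was 3.33 and 2.83. The log2 ratio of highest to lowest was -0.21, 0.28, 0.11 and -0.23, with a mean of -0.01 ± 0.25 (SD, n = 4 sections, exact sign-flip permutation test, two-sided, p = 1, where 0.13 is the smallest possible). The ratio was lower in the highest quartile on days 1 and 14 and higher on days 4 and 7. On day 7 most member UMIs of the lowest quartile came from the 115 fast skeletal muscle spots, and the ratio was not computed without them. With Myh6+Myl2 taken as a share of UMIs outside the mitochondrial genome, the ratio instead went from 2.41 to 2.51, from 2.10 to 3.30, from 2.17 to 2.65 and from 2.76 to 3.23, higher in 4 of 4 sections with a mean log2 ratio of 0.31 ± 0.25 (SD, exact sign-flip permutation test, two-sided p = 0.13). In the middle quartiles of the first ranking the ratio was 2.76 and 2.64 on day 1, 3.68 and 3.66 on day 4, 2.81 and 2.57 on day 7, and 3.23 and 3.12 on day 14. The nuclear subunits went on rising into the highest quartile in 4 of 4 sections, by 0.68, 1.07, 0.52 and 0.26 points of all UMIs, where the members' share fell (exact p = 0.13). Ranked on UMIs outside the mitochondrial genome they rose in 3 of 4 (exact p = 0.25).

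The make-up of the mitochondrial UMIs shifted within the set. mt-Co1 made up 23.6% of the UMIs of the 13 genes in the lowest and 25.8% in the highest Myh6+Myl2 quartile on day 1, 22.6% and 26.6% on day 4, 20.6% and 26.3% on day 7, and 27.2% and 28.1% on day 14. mt-Co2 went the other way, with 7.88% and 7.40%, 9.60% and 7.98%, 10.7% and 7.68%, and 9.66% and 8.55%. mt-Co1 thus gained in 4 of 4 sections and mt-Co2 lost in 4 of 4, although both subunits belong to 1 complex. The mean changes were 3.22 ± 2.08 points for mt-Co1 and -1.55 ± 1.07 points for mt-Co2 (SD, n = 4, exact sign-flip permutation test, two-sided p = 0.13, adjusted over the 13 genes 0.325). mt-Nd4 changed by -0.41, -0.71, -0.70 and -0.37 points, and mt-Nd5 was also lower in 4 of 4 sections, with a mean change of -0.039 points. None of these passes 0.05, which 4 sections cannot reach. mt-Cytb, mt-Co3 and mt-Atp6 rose in 2 sections and fell in the other 2. In the lowest quartile of day 7 most member UMIs came from the 115 fast skeletal muscle spots. Members took 22.4% of 485687 UMIs there, against 3.98% of 984646 in the other 347 spots. Myh6 and Myl2 made up 0.26% of UMIs in those 347 spots. The day 7 changes thus mix skeletal muscle with other tissue, and the make-up without the skeletal muscle spots was not computed.

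**Figure D4:**
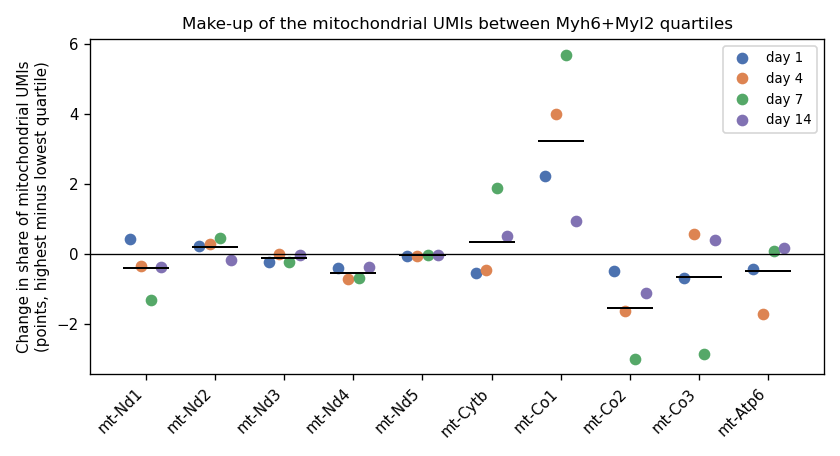
Change in each transcript's share of the mitochondrial UMIs (points, highest minus lowest Myh6+Myl2 quartile, vertical axis) for the 10 transcripts (horizontal axis), 1 point per section and a bar for the mean. mt-Co1 lies above 0 in 4 of 4 sections, from 0.95 to 5.70 points, and mt-Co2 below 0 in 4 of 4, from -3.01 to -0.48 points. The lowest quartile of day 7 includes 115 fast skeletal muscle spots, which hold most of its member UMIs.

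The share also rose with the depth of a spot. Ranked on all UMIs per spot, the members took 21.9%, 25.6%, 27.1% and 28.8% of UMIs from the shallowest to the deepest quartile on day 1. On day 4 they took 15.5%, 26.5%, 31.6% and 34.4%, and on day 14 they took 22.8%, 33.1%, 34.7% and 36.5%. On day 7 they took 12.8%, 25.1%, 25.8% and 25.4%, with the highest value in the third quartile. The deepest quartile lay above the shallowest for all 10 members in 4 of 4 sections, and all 10 were called higher (log2 fold change 0.70 for mt-Co2 to 0.90 for mt-Co1, edgeR adjusted p from 0.000166 to 0.000472). Of all tested genes 11.6% were higher and 55.8% lower (median log2 fold change -0.39), and with TMM factors 28.8% were higher and 29.4% lower, with all 10 members again higher.

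The depth of a spot includes the members' own UMIs, and the call was lost when it did not. Ranked on UMIs outside the mitochondrial genome, 0 of 10 members passed (edgeR adjusted p from 0.169 to 0.905, with 1 member at an unadjusted p under 0.05), and the median log2 fold change was 0.07. Calls were few over all genes as well, with 0.482% higher and 2.08% lower and a median of -0.09. mt-Nd1, mt-Nd2 and mt-Co2 then had -0.023, -0.018 and -0.033. The summed share was 25.0%, 27.1%, 28.9% and 25.2% on day 1 and 27.5%, 32.4%, 31.9% and 25.6% on day 4. It was 21.5%, 26.7%, 25.1% and 22.1% on day 7 and 25.5%, 34.1%, 35.5% and 34.6% on day 14. The highest share was then in a middle quartile in all 4 sections.

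The shallow spots also held more fibroblast markers. In the shallowest and deepest quartiles these stood at 2146 and 1435 CPM on day 1, 26119 and 6148 on day 4, 35161 and 6454 on day 7, and 13912 and 971 on day 14. The nuclear-retained RNAs Malat1 and Neat1, both detected, together stood at 986, 843, 867 and 1081 CPM in the shallowest quartiles of days 1, 4, 7 and 14 and at 697, 615, 669 and 456 CPM in the deepest. Malat1 was lower in the deepest quartile (log2 fold change -1.38 ± 0.25 SE, edgeR adjusted p = 0.00061). The part of these markers in the member values was not tested. With depth quartiles taken within each Myh6+Myl2 quartile, the summed share went from 23.6% to 29.1% on day 1, from 26.6% to 31.2% on day 4, from 24.8% to 23.8% on day 7 and from 31.4% to 36.3% on day 14. This evened out the numbers of spots but not the Myh6+Myl2 share of the summed UMIs. That share went from 2.14% to 1.84%, from 1.81% to 1.63%, from 2.13% to 1.84% and from 2.25% to 2.19%. In that fit 8 of 10 members were called higher by edgeR, at a median log2 fold change of 0.16. Over all tested genes 0.608% were higher and 8.45% lower in that fit, and their median was -0.11. The ranking behind this fit still counted the members' own UMIs, so it cannot separate a rise with depth from their part in the depth. A ranking on UMIs outside the mitochondrial genome within the Myh6+Myl2 quartiles was not tested.

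Nuclear subunits were higher in the deepest quartile too, 73 of 76 tested for complexes I, III, IV and V, with 2 lower, at a median log2 fold change of 0.51. Over all tested genes 11.6% were higher and 55.8% lower. With TMM factors 74 of the 76 were higher, against 28.8% of all genes. This depth ranking counts the members' own UMIs. Ranked on UMIs outside the mitochondrial genome, 0.482% of all genes were higher and 2.08% lower, and calls among the subunits are not given here. Member UMIs per nuclear subunit UMI went from 2.17 to 2.79, from 2.66 to 3.57, from 2.32 to 2.55 and from 2.80 to 3.29 on days 1, 4, 7 and 14. The mean log2 ratio was 0.29 ± 0.13 (SD, n = 4, higher in 4 of 4 sections, exact sign-flip permutation test, two-sided p = 0.13). Ranked on UMIs outside the mitochondrial genome, the mean was -0.09 ± 0.17 and the ratio was higher in 2 of 4 (exact p = 0.5).

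**Figure D5:**
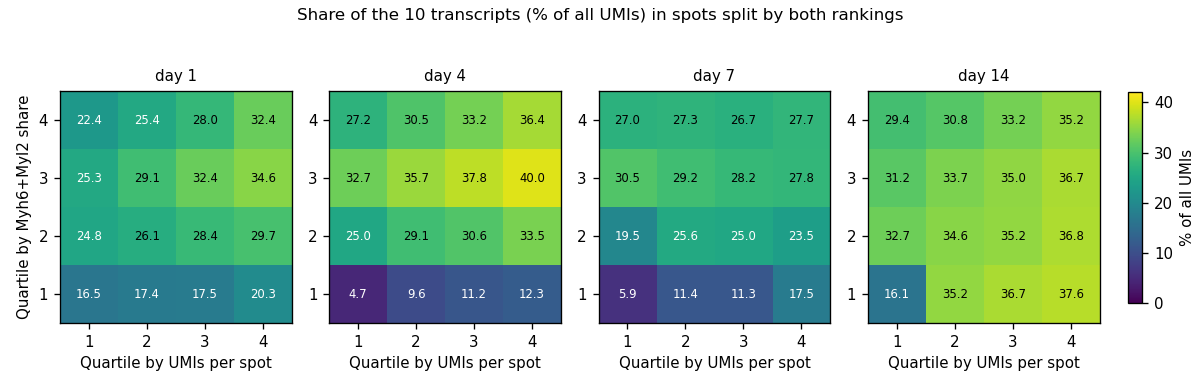
Summed share of the 10 transcripts (% of all UMIs, colour and printed value) in spots split by the quartile of UMIs per spot (horizontal axis) and of Myh6+Myl2 share (vertical axis), 1 panel per section. On day 14 the corner of spots lowest in both holds 16.1% while every other cell holds at least 29.4%, and on days 4 and 7 the whole lowest row stays at or below 17.5%.

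Split by both rankings at once, the day 14 section stood apart. Its 370 spots that were lowest in both held 16.1%, while the other 3 depth quartiles of the lowest Myh6+Myl2 quartile held 35.2%, 36.7% and 37.6%. On day 4 the lowest Myh6+Myl2 quartile stayed low at every depth, with 4.68%, 9.61%, 11.2% and 12.3%, and on day 7 with 5.95%, 11.4%, 11.3% and 17.5%. On day 1 it held 16.5% to 20.3%. Averaged over depth quartiles, the highest Myh6+Myl2 quartile exceeded the lowest by 9.11, 22.4 and 15.6 points on days 1, 4 and 7 and by 0.77 points on day 14, where it was higher in 1 of 4 depth quartiles. Each panel is 1 section, so no difference between days was tested.

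Across the 64 libraries of this split, each member followed the sum of all 10 closely, with Pearson's r of 0.987 for mt-Co2 and mt-Nd5 to 0.999 for mt-Atp6. Each member is itself part of that sum, so high values are partly built in. Levels here were log2 of UMIs per 1000000 UMIs outside the mitochondrial genome plus 1, centred within each section. Of 4757 other genes the 5 most alike were Ndufb9 (r = 0.973, complex I), Cox6a2 (0.971, complex IV), Atp5g1 (0.969, complex V), Uqcrh (0.969, complex III) and Chchd10 (0.967), which encodes a protein of the mitochondrial intermembrane space. The likeness of Myl2 was 0.899 and that of Myh6 0.863, of Lrpprc 0.920, of Ppargc1a 0.861, of Tfam 0.644 and of Polrmt 0.352. Lrpprc, Ppargc1a, Tfam and Polrmt had only 3965, 1576, 1571 and 1079 UMIs over all 64 libraries, against 58291 for Ndufb9. The part of counting error in their lower values was not tested. These libraries share sections and depth, and they were split on Myh6+Myl2 share and on UMIs that include the members' own. The values are therefore descriptions.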

How the data were processed

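Fresh-frozen hearts were cut at 10 µm, and 1 section per mouse was placed on a Visium slide. Per the submitters' processing notes and the study's methods, the authors made the deposited UMI counts per gene and spot with Space Ranger 1.3.0 on mm10 and used Seurat 4.1.1 later. The counts were not normalized and cover spots under tissue. How multi-mapped reads were counted is not given in the sources used here.

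Spots above 1% hemoglobin UMIs (8 genes) were removed. Spots were ranked within each section and split into 4 quartiles by Myh6+Myl2 share or by UMIs, and UMIs were summed per quartile into 16 libraries. edgeR 4.0.16 (robust quasi-likelihood, library size as all UMIs, section as a block, 9 residual degrees of freedom) compared the highest with the lowest quartile. Benjamini-Hochberg adjustment covered the 4769 genes with at least 1000 UMIs. A call is an adjusted p under 0.05. Quartiles of 1 section are not separate animals, so these p-values describe these 4 sections. SE was taken as log2 fold change over the root of F. The ratio and make-up tests are exact sign-flip tests over 4 sections. The fits were also run on simulated counts, drawn independently for each quartile. That run cannot show how the p-values hold for quartiles that share a section. Nuclear matches were found with blastn 2.17.0 on GRCm38. Intervals cover counting error only.

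All members are named, with the other mitochondrial protein genes, Myh6, Myl2, Tfam, Polrmt, Lrpprc, Slirp and Ppargc1a, the extremes of each list of nuclear genes and the 5 most alike genes. Cox6a2 is also among the last. The members and lists were chosen with earlier results of these data known. Alternatives were TMM factors, DESeq2 1.42.0, other filters, blocks and rankings, and each section left out in turn. Spot positions were not used here.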

Additional observations from a re-analysis of the deposited data

Results flagged for a closer look

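The ratio of member UMIs to nuclear subunit UMIs moved in opposite directions between Myh6+Myl2 quartiles in different sections, with a log2 change of -0.21 on day 1 and -0.23 on day 14 against 0.28 on day 4 and 0.11 on day 7. Each day is 1 section, and the difference between days was not tested. On day 7 most member UMIs of the lowest quartile came from fast skeletal muscle spots, so its value mixes skeletal muscle with other tissue.

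Several members changed their part of the mitochondrial UMIs in opposite directions between sections, also untested. From the lowest to the highest Myh6+Myl2 quartile mt-Nd1 changed by -1.304 points on day 7 and 0.42 on day 1, mt-Nd2 by -0.17 on day 14 and 0.47 on day 7, and mt-Atp6 by -1.72 on day 4 and 0.18 on day 14. mt-Co3 changed by -2.87 points on day 7 and 0.58 on day 4, mt-Nd3 by -0.23 on day 1 and 0.0024 on day 4, and mt-Cytb by -0.55 on day 1 and 1.90 on day 7. On day 7 most member UMIs of the lowest quartile came from fast skeletal muscle spots, so its changes mix skeletal muscle with other tissue.

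The spots left out for hemoglobin held the members too. Their share there was 34.9%, 29.3%, 25.9% and 30.6% on days 1, 4, 7 and 14, above the share of the kept spots on days 1 and 7 and below it on day 14. On day 4 it lay within counting error of the kept spots.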

How the results depend on the processing

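The summed share per section was 27.1%, 24.2% and 33.7% on days 1, 7 and 14 without the hemoglobin filter. With spots up to 0.5% hemoglobin kept it was 26.6%, 29.2% and 22.8% on days 1, 4 and 7, with only spots of at least 1000 UMIs 24.0% and 34.2% on days 7 and 14, and as an unweighted mean of spots 25.6%, 26.6%, 21.8% and 30.0% on days 1, 4, 7 and 14. Under each, day 7 was lowest and day 14 highest.

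The number of members called between Myh6+Myl2 quartiles was 0 with only the 2 compared quartiles and 0 to 10 with each section left out, 0 without day 7 and 3 without day 4. It was 8 to 10 in the other alternatives, and all 10 fold changes were above 0 in each. In those other alternatives 799 to 1610 of all genes tested were called higher and 1655 to 7817 lower. Between depth quartiles the number of members called was 0 with spots ranked on UMIs outside the mitochondrial genome, where mt-Nd1, mt-Nd2 and mt-Co2 turned to -0.023, -0.018 and -0.033, and 8 to 10 otherwise. Over all genes tested, 23 were higher and 99 lower with that ranking, against 29 to 1374 higher and 403 to 7347 lower otherwise. The causes were not tested. Fits without a section or without the middle quartiles have fewer libraries. Between Myh6+Myl2 quartiles, 10 members were called without day 14 and 8 without day 1. Of all 4769 genes tested, 934 were higher and 2573 lower without day 14, and 866 were higher and 2387 lower without day 1. The mean log2 ratio of members to nuclear subunits between Myh6+Myl2 quartiles became 0.31 with the ranking outside the mitochondrial genome.

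Quartiles were compared within sections throughout. Samples of different days could not be paired, since each day has 1 section and the labels carry no replicate numbers. Depth left mt-Nd6 and 19 of 31 genes of mitochondrial DNA expression untested, and the 4 sections limit the exact tests.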
